A study of Drosophila melanogaster with 4 samples.

Results

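Secretory and membrane traffic genes were examined in heads of Drosophila melanogaster fed tetraethylammonium chloride (TEA), an organic cation that blocks potassium channels. The genes were taken by name: Rab genes other than Rab3, Sec genes with a number, and Vps, Arf, Syx (other than Syx1A), Vamp, AP-1, AP-2 and COP genes of the platform annotation. They came to 55 of the 6793 genes named on the array, on 58 of 7558 probes, with no Syx gene and none whose symbol begins with COP. Of the 55 genes, 17 had a probe with a value on at least 3 of the 4 arrays and could be tested, on 18 probes.

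All flies were unmated Oregon R males, 3 to 4 days old at the start by the age label and kept at 24 °C with 30 flies per vial. TEA flies received 16 mg/ml TEA in normal medium for 7 days and control flies received normal medium for the same 7 days. On replicates 1 and 2 the growth notes give the control flies a shorter time in vials before treatment than the TEA flies, a difference whose part was not tested. RNA from pooled TEA heads was hybridised together with RNA from pooled control heads, 1 cDNA array for each of 4 biological replicates, with 1 dye per pool. The dye of the TEA pool was Cy5 on replicates 1 and 2 and Cy3 on replicates 3 and 4. A value is the log2 ratio of TEA over control, so that 1 is a doubling, and the number of arrays limits its precision. In a whole head, fewer cells of a type and less RNA per cell cannot be told apart.

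Proteins bound for the cell surface enter the endoplasmic reticulum through the Sec61 channel, leave it in coated vesicles and pass through the Golgi. Rab and Arf GTPases mark each membrane and recruit tethers, such as the exocyst at the plasma membrane, and SNARE proteins then fuse the vesicle with its target. Material taken up again passes through endosomes, where the ESCRT complexes sort it into inner vesicles for breakdown in the lysosome. Neurons and photoreceptors in the head depend on these steps to renew synapses and light-sensing membrane.

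The direction of the deposited ratio is likely Cy5 over Cy3, because Cy5 is channel 1 in every label and scanner software of this kind divides red by green by default. Replicates 3 and 4 were therefore turned in sign. If the ratio ran the other way on every array, all signs below would turn. If replicates 3 and 4 were deposited already as TEA over control, only the signs of their values would turn. The arrays held values for 5445 to 6252 of 27648 spots. Over the 1379 tested genes, the array medians after turning were -0.10 and -0.087 on replicates 1 and 2. They were 0.26 and 0.058 on replicates 3 and 4, so the turned values shifted with the dye orientation through the whole table. As deposited, the medians over spots were -0.09, -0.077, -0.248 and -0.0545 on replicates 1 to 4, all below 0. The shift therefore rests on the turning. Of the markers checked for a head sample, 5 of 17 photoreceptor genes and 4 of 6 head fat body genes were tested. The photoreceptor genes lay between -0.088 for rdgA and 0.40 for Arr1, and the fat body genes stood at 0.78 for apolpp, 0.45 for FASN1, 0.33 for bgm and -0.001 for Lsp2. apolpp passed the threshold over all genes (limma adjusted p = 0.022), and the part of fat body RNA in the values below was not tested. Of 8 neuronal markers 1 had a probe and none was tested, and of 8 markers of the male abdomen 3 had a probe and none was tested.

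Sec20 stood apart from the other traffic genes. Sec20 is a SNARE of the endoplasmic reticulum, known in yeast and mammals for receiving vesicles that return from the Golgi. Its log2 ratio was -1.25 on replicate 1, -0.89 on replicate 2 and -1.06 on replicate 3, and replicate 4 gave no value. All 3 values lay well below 0, at a mean of -1.07 for the arrays with TEA in Cy5 and at -1.06 on the only array with TEA in Cy3. Sec20 fell by 1.07 on the log2 scale with TEA (SE 0.16, n = 3; limma adjusted p = 0.0088 over all genes), a level 2.10-fold lower than in control heads. The 95% interval of the change ran from -1.42 to -0.71. It was the only one of the 17 traffic genes past the adjusted threshold of 0.05, which 0.87% of all tested genes passed in either direction and 0.435% passed downwards. Only 2 of the 1379 tested genes had a lower mean and 3 had a smaller p.

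The Sec20 value rests on 1 probe, on 3 arrays and on the turned signs. Its duplicate spots on replicate 1 read -0.99 and -1.50, the widest gap of the 64 duplicate pairs of traffic probes, while on replicates 2 and 3 they differed by 0.031 and 0.010, below the median gap of 0.13. In the fit over 3150 single probes the same values gave a limma adjusted p of 0.089 and none of the 18 traffic probes passed, against 0.635% of all probes; 1 of the 18 had an unadjusted p under 0.05, as 8.98% of all probes had, and the one-class SAM statistic called 1, Sec20, among 1.17% of all probes. With replicate 4 left out of the gene fit, its 3 values did not move but the limma adjusted p became 0.074, in a fit that called 2 of 1379 genes. Without moderation of the spread it was 0.644, and with replicates 3 and 4 not turned the mean was -0.36 (limma adjusted p = 0.609). An exact sign-flip test of 3 arrays could not give a p below 0.25. In the RefSeq table Sec20 overlaps CG46303, which was not tested; probe sequences were not used here, so whether the probe also detects CG46303 was not tested.

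**Figure D1:**
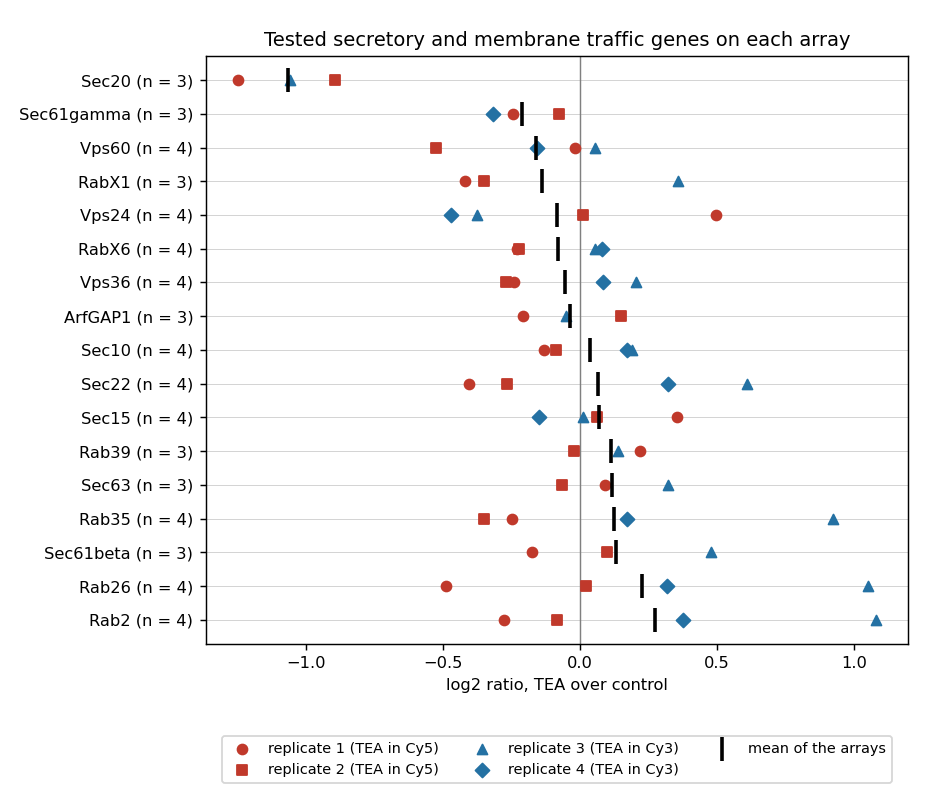
Log2 ratio of TEA over control (horizontal axis) for the 17 tested traffic genes, sorted by mean; red symbols are arrays with TEA in Cy5, blue symbols arrays with TEA in Cy3, and the black bar is the mean of the arrays measured. Sec20 lies between -1.25 and -0.89 on its 3 arrays, while Rab2, Rab26, Rab35 and Sec22 are low or near 0 in red and high in blue.

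The remaining 16 genes showed means close to 0. They ran from -0.21 for Sec61gamma to 0.27 for Rab2, with standard errors of 0.14 to 0.20, and all 16 of the 95% intervals included 0. The outermost bounds were -0.56, for Sec61gamma, and 0.69, for Rab2. Of the 17 genes, 9 had a mean above 0, against 55.5% of all tested genes, and the median of the 17 was 0.036 against 0.022 for all genes. The typical size without regard to sign was a median of 0.12 in both. No member other than Sec20 had an unadjusted limma p under 0.05, which 8.92% of all genes had. For the 7 genes measured on 3 arrays, 1 orientation had 1 array, so a shift with orientation does not cancel in the mean. With the dye orientation as a second term, RabX1 stood at -0.013, Sec61beta at 0.22, Sec63 at 0.17 and Sec61gamma at -0.24. Rab39 stood at 0.12, ArfGAP1 at -0.039 and Sec20 at -1.07 in that fit.

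Entry into the endoplasmic reticulum was represented by 3 genes. Sec61beta and Sec61gamma are small subunits of the Sec61 channel, and Sec63 is its partner that holds the lumenal chaperone at the channel. Sec61gamma was one of only 2 traffic genes, with Sec20, that kept 1 sign on every array measured, which 18% of all genes did: its log2 ratios were -0.24, -0.077 and -0.32 on replicates 1, 2 and 4, and its mean of -0.21 ± 0.16 (SE, n = 3) did not pass the threshold. Sec61beta had -0.18, 0.098 and 0.48 on replicates 1 to 3, and its 2 spots on replicate 1 read -0.38 and 0.023. The mean of Sec61beta was 0.13 ± 0.18 (SE, n = 3) and that of Sec63 was 0.12 ± 0.17 (SE, n = 3). The values of neither gene were separated from 0.

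Among SNAREs, Sec22 differed from Sec20. Sec22 acts in transport between the endoplasmic reticulum and the Golgi. Its log2 ratio was -0.40 and -0.27 on replicates 1 and 2 and 0.61 and 0.32 on replicates 3 and 4. The values were below 0 wherever TEA carried Cy5 and above 0 wherever it carried Cy3, so that the mean was 0.066 ± 0.17 (SE, n = 4). At the Golgi, ArfGAP1, which switches off the Arf GTPase of COPI-coated vesicles, stood at -0.036 ± 0.16 (SE, n = 3), and its 2 spots on replicate 3 read -0.29 and 0.19. The exocyst subunits Sec10 and Sec15, which tether secretory vesicles to the plasma membrane, stood at 0.036 ± 0.14 and 0.070 ± 0.14 (SE, n = 4 each). Sec10 had the narrowest 95% interval of the 17 genes, from -0.26 to 0.33.

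The 6 Rab genes had means from -0.14 to 0.27, with 4 of 6 above 0 and none past the threshold. Rab2, a GTPase of the Golgi and of late endosomal and autophagosomal fusion, had log2 ratios of -0.28 and -0.084 on replicates 1 and 2 and 1.08 and 0.38 on replicates 3 and 4. Rab26, linked in mammals to secretory granules and to the turnover of synaptic vesicles, had -0.49, 0.024, 1.05 and 0.32 on replicates 1 to 4. Both were highest on replicate 3, where only 3.58% of all genes lay above Rab2 and 4.05% above Rab26. Their means were 0.27 ± 0.20 and 0.23 ± 0.20 (SE, n = 4 each; limma adjusted p = 0.859 and 0.864). On the arrays with TEA in Cy3 alone, Rab2 at 0.73 and Rab26 at 0.68 passed the threshold (limma adjusted p = 0.016 and 0.025), 2 of the 10 traffic genes with both values, where 9.94% of all genes in that fit passed. That fit gave every gene the same spread. In the fit of the same arrays over single probes, none of the 10 traffic probes and 1 of 2529 probes passed. In the opposite orientation Rab2 and Rab26 stood at -0.18 and -0.23 and did not pass, while 12% of all genes did.

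Rab35, a GTPase of recycling endosomes, was the only traffic gene with more than 1 tested probe. One probe read -0.14, -0.65 and 0.046 on replicates 1, 2 and 4, and the other -0.36, -0.048, 0.92 and 0.30 on replicates 1 to 4. The probe means of -0.25 ± 0.19 and 0.21 ± 0.22 (SE) had opposite signs but cover different arrays. The replicate 3 value of the gene came from the second probe alone. On replicates 1, 2 and 4 the probes had the same sign on each array, at differing sizes. The gene mean was 0.12 ± 0.19 (SE, n = 4). RabX1, an endosomal Rab found in flies, stood at -0.14 ± 0.19 (SE, n = 3), RabX6 at -0.078 ± 0.14 (SE, n = 4) and Rab39, a Rab of the endosomal and lysosomal pathway, at 0.11 ± 0.16 (SE, n = 3). RabX6 shares its place in the RefSeq table with Vti1a, a SNARE gene that was also tested.

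The 3 tested Vps genes belong to the ESCRT machinery and all had means below 0, none past the threshold. Vps60, an ESCRT-III related protein, stood at -0.16 ± 0.15, Vps24, an ESCRT-III subunit, at -0.085 ± 0.17, and Vps36, a subunit of ESCRT-II, at -0.056 ± 0.14 (SE, n = 4 each). Vps24 read 0.50 and 0.011 on replicates 1 and 2 and -0.38 and -0.47 on replicates 3 and 4. It was thus above 0 with TEA in Cy5 and below 0 with TEA in Cy3, the opposite order to Sec22, Rab2 and Rab35. With TEA in Cy5, 3.70% of all genes lay above it on replicate 1 and 33.2% on replicate 2, and with TEA in Cy3, 3.74% and 3.30% lay below it on replicates 3 and 4.

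**Figure D2:**
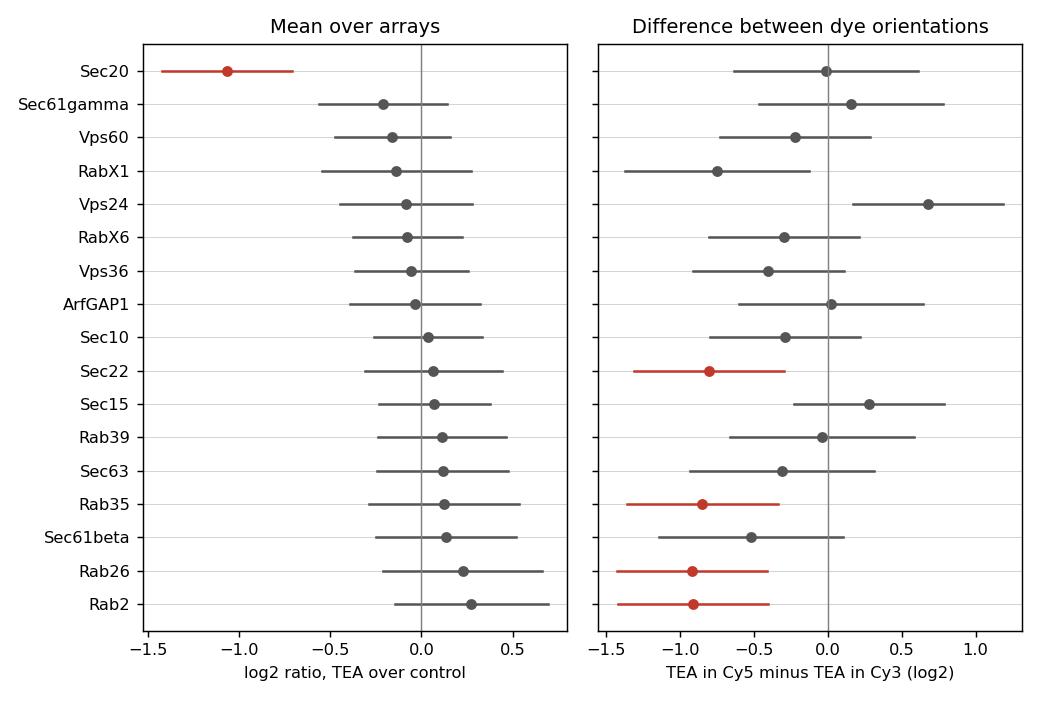
Left, mean log2 ratio of TEA over control for the 17 traffic genes; right, the same ratio with TEA in Cy5 minus that with TEA in Cy3. Points are estimates from the limma fits over all genes, bars their 95% intervals, and red marks an adjusted p under 0.05: Sec20 on the left, and Rab2, Rab26, Rab35 and Sec22 on the right.

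The arrays of opposite dye orientation were then compared for the same genes. A difference here means that the TEA ratio, as turned, changed between the orientations. The dye, the arrays, the growth notes that differ for the controls of replicates 1 and 2, and a wrong turning of replicates 3 and 4 cannot be told apart. With replicates 3 and 4 not turned, the means of Rab26, Rab2, Rab35 and Sec22 were -0.46, -0.45, -0.42 and -0.40. Those means did not pass the threshold, in a fit that called 0 of 1379 genes. Rab26, Rab2, Rab35 and Sec22 read lower with TEA in Cy5 than with TEA in Cy3, by 0.92, 0.91, 0.85 and 0.80 on the log2 scale (SE 0.26 each; limma adjusted p = 0.0083, 0.0087, 0.016 and 0.023). These 4 of 17 genes compare with 12.8% of all tested genes, and 11.1% in this direction; at an unadjusted p under 0.05 they were 6 of 17 and 25.7%. The fit gave every gene the same spread, and in the fit over single probes none of the 18 traffic probes and 0 of 3150 probes passed, with 6 and 506 at an unadjusted limma p under 0.05. The 2 tested probes of Rab35, taken singly, gave differences of -0.44 and -0.81, and the first had no value on replicate 3. Vps24 had the largest difference in the other direction, 0.68 (SE 0.26; limma adjusted p = 0.061).

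Part of this difference ran through all genes: their median difference was -0.26, and -0.29 over the traffic genes. With each array centred on its median the difference was -0.67 for Rab2 (SE 0.21; limma adjusted p = 0.048) and 0.91 for Vps24 (SE 0.21; limma adjusted p = 0.0086), and these were the 2 traffic genes past the threshold, which 7.83% of all genes passed. Rab26 at -0.68, Rab35 at -0.61 and Sec22 at -0.57 then had a limma adjusted p of 0.060, 0.070 and 0.069. Centring also moved the share of called genes that read lower with TEA in Cy5 from 86.9% of 176 to 50.9% of 108. Leaving out replicate 1 or replicate 2 gave 0 calls among the traffic genes, with 2 and 5 of 10 at an unadjusted limma p under 0.05, beside calls for 0% and 2.2% of all genes. Leaving out replicate 3 gave 2 of 11, beside 13.6% of all genes, and leaving out replicate 4 gave 5 of 16, beside 24.8%.

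Counted by sign alone, 8 of the 17 genes had 1 sign with TEA in Cy5 and the other with TEA in Cy3, against 33.6% of all genes. Of these 8, RabX1, RabX6, Vps36, Sec10, Sec22, Rab35 and Rab2 were below 0 with TEA in Cy5, as 30.7% of all genes were, and Vps24 was above 0. With each array centred on its median 7 of the 17 split in this way, against 24.7% of all genes, and Sec20, Sec63 and Sec61gamma, the last with exactly 0 on replicate 2, kept to 1 side of 0, against 22.8%. On replicate 1, 4 of 17 traffic genes lay above 0, and on replicate 3, 13 of 16 did, beside 33.7% and 82.1% of all genes. The order of the traffic genes was alike on the arrays of 1 orientation. The Spearman correlation across genes was 0.47 for replicates 1 and 2 (17 genes) and 0.92 for replicates 3 and 4 (10 genes). Over all genes these correlations were 0.45 (1374 genes) and 0.52 (1000 genes). Across orientations the correlation of the traffic genes lay between -0.79 for replicates 1 and 4 (11 genes) and -0.024 for replicates 2 and 3 (16 genes). Over all genes it lay between -0.23 and 0.19, for the same 2 pairs. These genes share arrays, dyes and pools, so the correlations are descriptions. For Sec20 the difference between orientations was -0.012 (SE 0.32), with a 95% interval from -0.63 to 0.61. With centred arrays it was 0.32 (SE 0.25), from -1.16 and -0.82 with TEA in Cy5 against -1.31 on replicate 3.

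**Figure D3:**
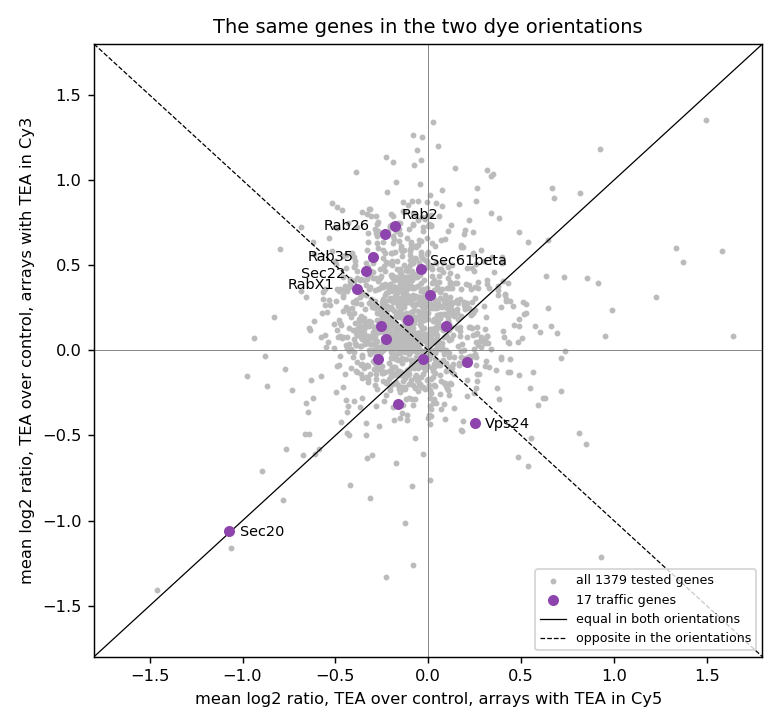
Mean log2 ratio of TEA over control on the arrays with TEA in Cy5 (horizontal) against the arrays with TEA in Cy3 (vertical), for all 1379 tested genes in grey and the 17 traffic genes in purple. Sec20 lies on the solid line of equal values near -1.07, while Sec22, Rab35, RabX1 and Vps24 lie near the dashed line of opposite values.

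Positions beside a probe in the table were read for the same arrays. Positions here are the order of the table, and whether they adjoin on the slide is not known. Of the 4 positions nearest to Sec20, 1 was tested, the unnamed position directly after it. It read 0.91, -0.74, -2.23 and -0.83 on replicates 1 to 4, with a mean of -0.72 ± 0.46 (SE, n = 4). This position was high on replicate 1, where Sec20 was lowest, and below 0 on replicates 2 and 3, as Sec20 was. The part of position in the Sec20 values was not tested. The neighbours of Rab26 were picked out after their values were seen. CG13739 before it read -0.54, 0.043, 0.57 and 0.20 on replicates 1 to 4. Cyp4d8, directly after it, read -0.48, 0.075, 1.15 and 0.32, and CG5543, the next, read -0.40, 0.11, 0.92 and 0.27. All 3 followed the Rab26 values from array to array, and the part of position in the Rab26 values was not tested. The unnamed position after Rab2 likewise read -0.50, -0.30, 1.22 and 0.50. Beside other traffic genes the tested neighbours were mixed. CG11857, directly before Vps60, read 0.0465, -0.41, 0.25 and -0.0115, where Vps60 read -0.016, -0.52, 0.0555 and -0.16. In contrast r-l, directly before Sec22, read -0.066, 0.0625 and -0.093 on replicates 1 to 3, where Sec22 read -0.40, -0.27 and 0.61.

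**Figure D4:**
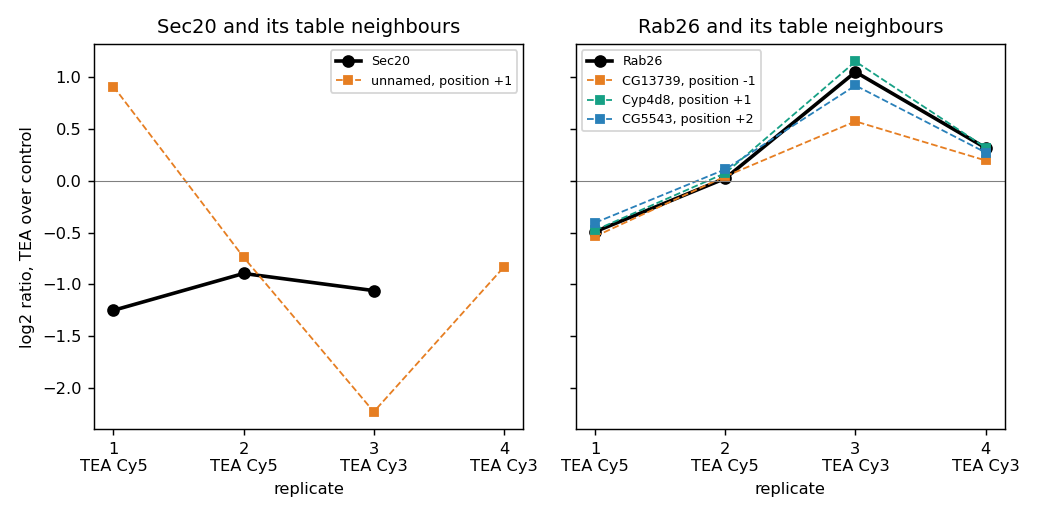
Log2 ratio of TEA over control on each array for Sec20 (left) and Rab26 (right), in black, with the tested positions within 2 places in the table as dashed lines. The position after Sec20 is at 0.91 on replicate 1 and below 0 on replicates 2 to 4, down to -2.23, while Sec20 stays between -1.25 and -0.89. The 3 neighbours of Rab26 rise and fall with it.

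For the other 38 traffic genes of the rule no array gave a value after the authors' filters, and none had values on only 1 or 2 arrays. Of the 58 traffic probes, 40 held no value. The tested share was 7 of 13 Sec genes, 6 of 14 Rab genes, 1 of 3 Arf genes and 3 of 21 Vps genes, against 20.3% of all named genes. Not measured were the clathrin adaptors AP-1-2beta, AP-1gamma and AP-2sigma, the COPII coat proteins Sec24AB, Sec24CD and Sec31, the exocyst subunits Sec3, Sec5 and Sec8 and the SNARE Vamp7. The retromer genes Vps26, Vps29 and Vps35, which return receptors from endosomes, the lysosomal tethers Vps16A and Vps39, the Golgi tethers Vps51, Vps52 and Vps53, and the ESCRT genes Vps4, Vps20 and Vps37B were not measured either. The same held for Vps8, Vps13, Vps15, Vps16B, Vps33B, Vps45, Vps50, Rab9, Rab18, Rab19, Rab27, Rab30, Rab40, Rab3-GAP, RabGGTa, ArfGAP3 and Arfip. A second probe of Sec61beta was among the 40 probes without a value.

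Traffic genes with other names were taken from a list of 158 genes. It covered coats, cargo receptors, adaptors, SNAREs, tethers, GTPase regulators and the signal recognition machinery. Of the 158, 4 had no match in RefSeq, 94 had a probe and 20 were tested. None rose or fell past the limma threshold in the fit over all genes, 1 had an unadjusted p under 0.05, and 12 of 20 had a mean above 0, with a median of 0.032. Snx1, a sorting nexin that works with retromer, had log2 ratios of -0.38, -0.076 and -1.33 on replicates 1 to 3, and a mean of -0.59 ± 0.22 (SE, n = 3; limma adjusted p = 0.379). Replicate 3 was by far the lowest of its values. Yif1, a membrane protein of transport between the endoplasmic reticulum and the Golgi, had -0.26, -0.46 and -0.28 on the same arrays (mean -0.33 ± 0.16, SE, n = 3; limma adjusted p = 0.614). Its values were below 0 in both dye orientations.

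The next 2 by p were both SNARE genes or SNARE partners. alphaSnap, which helps to take SNARE bundles apart after fusion, stood at 0.27 ± 0.16 (SE, n = 4), and Vti1a, a SNARE of the Golgi and endosomes, at -0.29 ± 0.17 (SE, n = 3). alphaSnap read -0.085 and 0.006 on replicates 1 and 2 and 0.65 and 0.50 on replicates 3 and 4, and so was higher with TEA in Cy3. Of the 20 genes, 8 had opposite signs in the dye orientations, against 33.6% of all genes, and 5 had 1 sign on every array, against 18%. Snx1 and shi, the dynamin that cuts vesicles from the membrane, were the 2 of the 20 that passed the test of the difference between orientations, which 12.8% of all genes passed, at 1.10 (SE 0.32; limma adjusted p = 0.0095) and -0.88 (SE 0.32; limma adjusted p = 0.044). With the dye orientation as a second term Snx1 had a mean of -0.78 (SE 0.16; limma adjusted p = 5.7e-05), from 3 arrays and with every gene given the same spread, in a fit that called 6.96% of all genes.

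**Figure D5:**
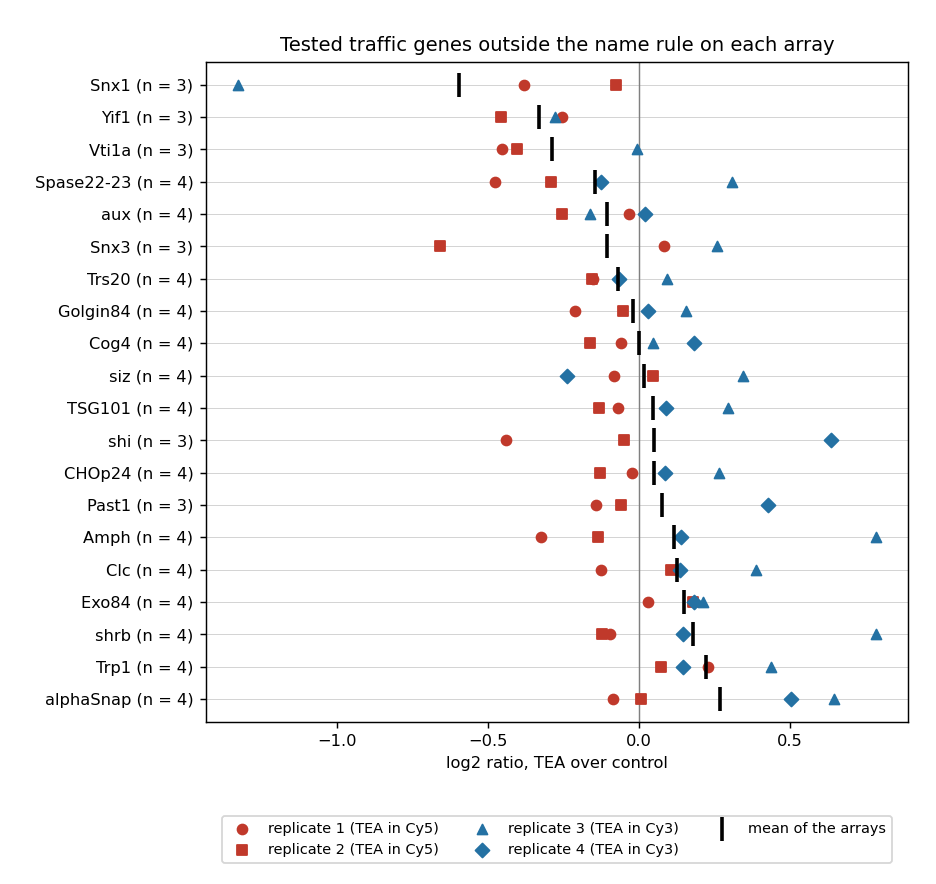
Log2 ratio of TEA over control for the 20 tested traffic genes outside the name rule, drawn as in the plot of the 17 members. Means run from -0.59 for Snx1 to 0.27 for alphaSnap, and the single value of Snx1 at -1.33 is from replicate 3.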

How the data were processed

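The values are the log2 ratios that the authors deposited, 1 column for each of 4 arrays. Per the labels' design text, RNA (10 µg per sample) was amplified and labelled, spots were quantified in GenePix Pro 6.0, and ratios were normalised in Acuity 4.0. Dim, saturated, flagged, uneven (R2 under 0.6) or noisy spots (signal under 3 times the noise) were then removed. Spots usable on 3 or more arrays went into SAM 3.0, with settings not given in the sources used here, nor is a genome build. The log base follows from a ceiling of 16.61, the log2 of a ratio of 1e+05; the 8 ceiling values, none of them in traffic spots, were treated as missing.

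Replicates 3 and 4 were turned in sign, and each pair of adjacent spots was averaged to a probe. Platform symbols were checked by gene identifier against RefSeq (Release 6), which held all 58 traffic probes. A gene is the mean of its tested probes. Probes, and separately genes, with values on at least 3 arrays were fitted with limma 3.58.1 (lmFit, eBayes, two-sided; R 4.3.3), p-values were adjusted by Benjamini-Hochberg over all features and the threshold was 0.05, after a check on simulated data. Errors are standard errors of that fit. The difference between dye orientations was a second coefficient, with infinite prior degrees of freedom over genes. Pools came from separate sets of vials. Every tested gene of the name rule is named, with the 4 smallest p of the other list; genes beyond these were chosen after their values were seen. The traffic genes and lists were chosen with earlier results of these data known.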

Additional observations from a re-analysis of the deposited data

How the results depend on the processing

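Sec20 kept its sign under every alternative that gave it a value, and outside the unturned reading its mean lay between -1.16 and -0.98. The count of traffic genes past the threshold, 1, became 0 with replicates 3 and 4 not turned (6 at an unadjusted limma p under 0.05), with values required on all 4 arrays, where Sec20 was not tested (0), and without moderation of the spread (1); it was 2, Rab2 and Rab26, with TEA in Cy3 only, beside 9.94% of all genes, and 0 to 1 when replicates were left out in turn, beside 33, 15, 36 and 2 of 1379 genes without replicates 1 to 4. The count of probes, 0, was 1 by the SAM statistic, which called 37 of 3150. Other traffic genes gave 1 call in place of 0 with a dye term (Snx1) and 1 with TEA in Cy5 only (Vti1a), fits that called 6.96% and 12% of all genes. The median of the traffic genes, 0.036, was -0.18 with TEA in Cy5 only, beside -0.11 for all genes, and ran from -0.0495 to 0.0727 without single replicates. The count of genes differing between dye orientations, 4, was 2 with centred arrays, 1 with centred and scaled arrays and 0 to 5 without single replicates.

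Of 258 single-gene alternatives 33 changed sign, none with an adjusted p under 0.05. With replicates 3 and 4 not turned the log2 ratio was -0.45 for Rab2, -0.46 for Rab26, -0.42 for Rab35, -0.14 for Sec10, -0.40 for Sec22, -0.19 for Sec61beta, -0.10 for Sec63 and 0.34 for Vps24. With TEA in Cy5 only it was -0.18 for Rab2, -0.23 for Rab26, -0.30 for Rab35, -0.11 for Sec10, -0.34 for Sec22, -0.0393 for Sec61beta and 0.25 for Vps24, and with TEA in Cy3 only 0.0685 for RabX6, -0.069 for Sec15 and 0.15 for Vps36. The second spots alone gave 0.0253 for ArfGAP1. Without single replicates the means ran from -0.13 to 0.0508 for ArfGAP1, -0.0495 to 0.46 for Rab26, -0.14 to 0.28 for Rab35, -0.39 to 0.00425 for RabX1, -0.015 to 0.0917 for Sec10, -0.025 to 0.14 for Sec15, -0.12 to 0.22 for Sec22, -0.0393 to 0.29 for Sec61beta, -0.28 to 0.0438 for Vps24 and -0.14 to 0.0163 for Vps36. The cause of these changes was not tested, except that the unturned reading flips 2 arrays by construction. Each array already sets 1 TEA pool against its own control pool, so the fit of the mean ratio uses that pairing. All arrays form 1 group, and no further pairing was possible. Signal over background cannot be shown from ratios.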
